A study of Mus musculus with 5 samples.

Results

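The T cell receptor complex is described here by 10 genes of 46983 in the deposited count tables, chosen by symbol. They are the β-chain constant genes Trbc1 and Trbc2, the signalling chains Cd3d, Cd3e, Cd3g and Cd247, the co-receptor genes Cd4, Cd8a and Cd8b1, and the kinase gene Lck. All 10 were found. The libraries came from EO771 cells, from a mouse mammary carcinoma, grown orthotopically in mice of strain C57/BL6. For the Treg-ablated group, regulatory T (Treg) cells were removed with 2 doses of 50 µg per kg diphtheria toxin and cells were sorted 4 days after treatment (2 libraries). Control tumours received no treatment (3 libraries). The sorted cells are labelled as tumour-associated macrophages carrying CD45, CD11b and F4/80 and lacking Ly6G. The labels name no allele that makes Treg cells sensitive to the toxin, no age, and no animal behind each library. Toxin exposure and Treg loss cannot be told apart in this design. The p-values reflect variation from library to library, part of which may be technical.

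An αβ T cell recognises peptide on MHC through the α and β chains of its receptor, whose cytoplasmic tails are too short to signal. The signal passes through the CD3δ, CD3ε, CD3γ and ζ chains (the last encoded by Cd247), which carry tyrosine motifs that the kinase LCK phosphorylates. LCK is brought to the receptor by the co-receptor CD4, which binds MHC class II, or by CD8, a dimer of CD8α and CD8β that binds MHC class I. In tumours the complex is used as a marker of infiltrating T cells, although NK cells also make CD3ζ and LCK, and some dendritic cells make CD8α without CD8β.

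The sequences that bear on these results are of 2 kinds. Trbc1 (ENSMUSG00000076490, chromosome 6, 41538218 to 41539881) and Trbc2 (ENSMUSG00000076498, chromosome 6, 41546730 to 41548352, GRCm38) are copies of each other, 6849 bases apart. Their transcripts in GENCODE M21 are identical over the first 259 bases, and the first 380 bases hold 1 difference, C260A, counted from the first base of the transcript with the Trbc1 base first. The stretch below follows base 380, lies within the coding part, and shows where reads can be assigned to a copy; capitals mark the 18 bases that differ.
Trbc1: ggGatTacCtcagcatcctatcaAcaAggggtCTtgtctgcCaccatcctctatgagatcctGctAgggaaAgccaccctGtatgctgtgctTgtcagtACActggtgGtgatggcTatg
Trbc2: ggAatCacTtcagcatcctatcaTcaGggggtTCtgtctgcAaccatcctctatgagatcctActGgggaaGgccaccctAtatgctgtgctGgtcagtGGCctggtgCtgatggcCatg
Of the 613 windows of 125 bases in Trbc1, the read length, 22.0% also occur unchanged in Trbc2. Reads within such windows may have been assigned to either copy or left out of the counts. The split between the copies is therefore uncertain, and their summed counts were also tested.

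The CD3 genes were shown by promoter because they lie together, and their similar fold changes were known when they were chosen. Whether their shared position bears on those changes was not tested. Cd3g (ENSMUSG00000002033, chromosome 9, 44969572 to 44980431, minus strand), Cd3d (ENSMUSG00000032094, chromosome 9, 44981793 to 44987052, plus strand) and Cd3e (ENSMUSG00000032093, chromosome 9, 44998743 to 45009590, minus strand) span 40019 bases. Cd3g and Cd3d face away from each other with starts 1362 bases apart. The 250 bases before each start, from RefSeq on GRCm38.p6 and read on the gene's own strand, are at chr9:44980432-44980681 for Cd3g, chr9:44981536-44981785 for Cd3d and chr9:45009612-45009861 for Cd3e. Capitals mark the letters AGGAAG (core of ETS factor motifs), CAGNTG (a class of E-box) and TGTGGT (core of RUNX motifs) on either strand.
Cd3g: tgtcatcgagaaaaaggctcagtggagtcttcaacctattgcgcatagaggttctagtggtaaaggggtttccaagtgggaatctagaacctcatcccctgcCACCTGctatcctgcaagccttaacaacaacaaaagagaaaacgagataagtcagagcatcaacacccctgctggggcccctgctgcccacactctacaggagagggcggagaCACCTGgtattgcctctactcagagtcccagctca
Cd3d: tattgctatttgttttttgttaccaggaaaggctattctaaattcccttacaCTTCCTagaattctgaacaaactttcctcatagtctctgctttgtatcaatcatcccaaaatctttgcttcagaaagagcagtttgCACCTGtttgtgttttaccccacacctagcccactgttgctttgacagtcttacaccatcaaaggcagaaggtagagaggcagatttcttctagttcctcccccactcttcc
Cd3e: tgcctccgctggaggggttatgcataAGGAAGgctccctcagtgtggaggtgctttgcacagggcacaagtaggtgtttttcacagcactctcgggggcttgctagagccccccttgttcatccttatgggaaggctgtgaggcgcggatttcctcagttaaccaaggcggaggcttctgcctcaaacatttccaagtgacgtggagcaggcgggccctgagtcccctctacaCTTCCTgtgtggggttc
Promoters were matched for 6 of the 10 genes, in 7 windows because Lck has a pair of starts. AGGAAG was in 5 of the 7 windows, both Lck windows among them, against 29.5% of 32851 mouse promoters of the same length. CAGNTG was in 4 of 7, against 44.8%, and TATAAA in 0 of 7, against 12.4%. TGTGGT was in 1 of 7, an Lck window, against 14.045%. These are matches of letters and not binding sites.

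All libraries held 13122668 to 20156835 counts, so a count of 3 in a library was worth 0.150 to 0.226 CPM. CPM are counts scaled to a library of 1000000 after TMM adjustment, and means are given ± SD with n = 2 Treg-ablated and n = 3 control libraries. Markers of fibroblasts, which the sort label does not name, had a far higher summed CPM than macrophage markers in every library. The source of the fibroblast RNA was not tested. The summed CPM of 8 fibroblast markers was 11010 and 11720 in the Treg-ablated libraries and 9902 to 12070 in controls, a sum carried mostly by Col3a1. Of the 8, 4 were lower (Col1a1, Col1a2, Pdgfrb and Postn) and 1 higher (Dcn). Among all genes tested 12.3% were lower and 13.5% higher. The summed CPM of 10 macrophage markers was 132.2 and 119 against 205 to 216.9. Col1a1 alone exceeded these sums, at 467.9 ± 5.452 CPM after ablation and 723.7 ± 33.94 CPM in controls. The 10 receptor genes together reached 45.96 and 50.09 CPM after ablation and 11.82 to 15.78 CPM in controls. Foxp3, which defines Treg cells, had 1 and 5 counts after ablation and 3, 9 and 3 counts in controls. Its rate ratio was 0.676 (exact 95% interval 0.215 to 1.84, counting error only), and at these counts no change in Foxp3 could be detected.

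The question of the design is how RNA of the sorted cells differed after Treg removal. Of the 10 genes, 9 were higher and 0 lower after ablation at an adjusted p under 0.05, while Cd4 did not pass (edgeR quasi-likelihood test). The p-values were adjusted over all 14580 genes tested. Cd247, which is among the 9, and Cd4 passed the low-count filter only through the Treg-ablated libraries, which favours higher values there. Both enter the median and the count without overlap given below, and Cd247 enters the 2-fold count. The 8 genes that passed the filter on controls alone were all called higher. Among all genes tested 13.5% were higher, and 2.09% were higher by at least 2-fold, as were all 9 called receptor genes. In the test against a fold of 1.5, 8 receptor genes were higher, against 0.672% of all genes, and DESeq2 called 8 higher, against 9.05%. The median log2 fold change was 1.71 over the 10 genes and −0.01 over all genes tested. Both Treg-ablated libraries lay above every control for all 10, as for 26.9% of genes tested. The sort label names macrophages and no T cells, and the source of the receptor RNA was not tested. In these bulk libraries, more T cells among the sorted cells, for whatever reason, and more receptor RNA per cell cannot be told apart.

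**Figure D1:**
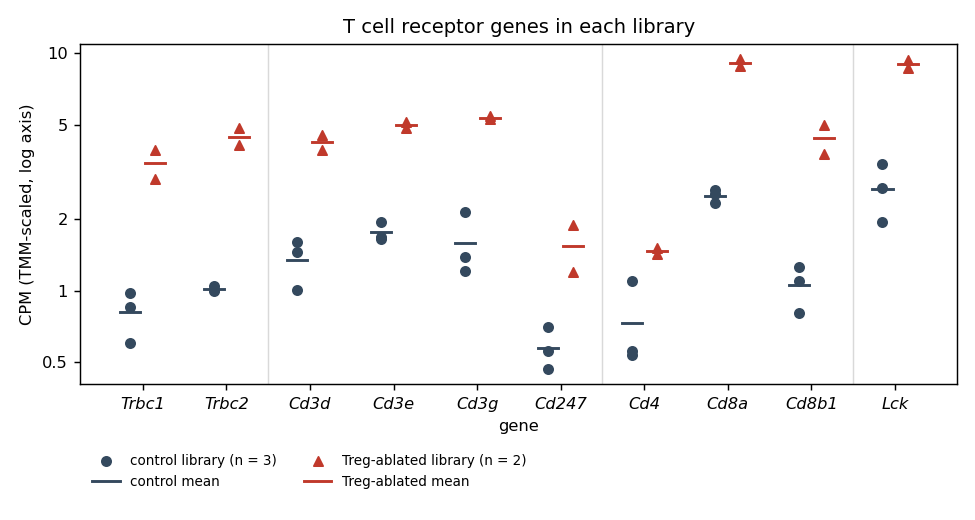
CPM (log axis) of the 10 receptor genes in each library, with circles for 3 controls, triangles for 2 Treg-ablated libraries and bars for group means. The groups do not overlap for any gene, and Cd4 shows the smallest gap, from 1.102 CPM in control replicate 2 to 1.433 in Treg-ablated replicate 2.

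The β-chain constant genes showed the largest fold changes of the set. Trbc2 had 65 and 64 counts after ablation and 15, 20 and 15 counts in controls, which is 4.098 and 4.828 CPM against 1.008, 1.002 and 1.045 CPM. Its controls were almost level with each other and lay far under both Treg-ablated libraries. Trbc2 rose 4.35-fold (log2 fold change 2.12, SE 0.218, adjusted p = 0.000284). Trbc1 had 47 and 52 counts after ablation and 9, 17 and 14 in controls, or 2.963 and 3.922 against 0.6046, 0.8514 and 0.9754 CPM. It rose 4.17-fold (log2 fold change 2.06, SE 0.272, adjusted p = 0.000918). With counts of the copies summed as 1 gene the log2 fold change was 2.10 (SE 0.184, edgeR adjusted p = 0.000105), so the rise did not rest on how reads were split. Any reads counted for neither copy are missing from this sum.

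The 3 CD3 chain genes rose between 2.84-fold and 3.27-fold. Cd3g, which encodes CD3γ, had 86 and 70 counts after ablation and 18, 43 and 20 in controls (5.422 and 5.280 against 1.209, 2.153 and 1.393 CPM). Control replicate 2 was the highest control. Cd3g rose 3.27-fold (log2 fold change 1.71, SE 0.233, adjusted p = 0.00108). Cd3d, which encodes CD3δ, had 62 and 60 counts against 15, 29 and 23, or 3.909 and 4.526 against 1.008, 1.452 and 1.602 CPM. It rose 3.08-fold (log2 fold change 1.62, SE 0.232, adjusted p = 0.00128). Cd3e encodes CD3ε, which pairs with each of the other CD3 chains. Its counts were 77 and 68 after ablation and 25, 33 and 28 in controls, or 4.854 and 5.129 against 1.680, 1.653 and 1.951 CPM. Within each group the Cd3e values were close, and the gene rose 2.84-fold (log2 fold change 1.51, SE 0.190, adjusted p = 0.000751).

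The ζ-chain gene Cd247 (ENSMUSG00000005763, chromosome 1, 165788681 to 165877277) was the least certain of the called genes. It had 19 and 25 counts after ablation and 7, 14 and 8 in controls, or 1.198 and 1.886 against 0.4703, 0.7011 and 0.5573 CPM. The Treg-ablated libraries differed from each other, relative to their mean, by more than for any other receptor gene. Cd247 rose 2.56-fold (log2 fold change 1.36, SE 0.352, adjusted p = 0.0183). The call ended without Treg-ablated replicate 2 (log2 fold change 1.02, adjusted p = 0.161), without control replicate 2 (1.55, adjusted p = 0.05004) and in the test against a fold of 1.5. Of its 5329 exon bases, 3213 (60.3%) are also exon of Pou2f1 on the opposite strand or of Gm16565, and the counting used no strand option, so its count covers only part of the gene. Cd247 and Cd4 were also the 2 genes that passed the low-count filter only through the Treg-ablated libraries; the other 8 passed on controls alone.

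Of the co-receptors, the CD8 genes rose and Cd4 did not pass. Cd8a (ENSMUSG00000053977, chromosome 6, 71373427 to 71379173) had 140 and 125 counts after ablation and 38, 47 and 38 in controls, or 8.826 and 9.429 against 2.553, 2.354 and 2.647 CPM. The spread in each group was small beside the gap. Cd8a rose 3.63-fold (log2 fold change 1.86, SE 0.151, adjusted p = 6.79e-05). Cd8b1 (ENSMUSG00000053044, chromosome 6, 71322788 to 71337494), which encodes the CD8β chain found on conventional cytotoxic T cells, had 60 and 66 counts against 12, 22 and 18. In CPM these were 3.783 and 4.978 against 0.8062, 1.102 and 1.254. Cd8b1 rose 4.09-fold (log2 fold change 2.03, SE 0.248, adjusted p = 0.000625). The genes are neighbours, 35933 bases apart.

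Cd4 (ENSMUSG00000023274, chromosome 6, 124864692 to 124888221), the co-receptor of helper and regulatory T cells, had 24 and 19 counts after ablation and 8, 22 and 8 in controls. In CPM these were 1.513 and 1.433 against 0.5375, 1.102 and 0.5573, so 2 controls lay near each other and control replicate 2 lay well above them. The log2 fold change was 0.94 (SE 0.360, adjusted p = 0.0782). Without control replicate 2 it was 1.42 (SE 0.352, adjusted p = 0.0426). Cd4 also passed when every gene with 1 count was tested (adjusted p = 0.0444) and after thinning to the smallest library (adjusted p = 0.0326). It did not pass in the other 11 alternatives that tested it, with adjusted p from 0.0541 (limma-voom) to 1 (test against a fold of 1.5).

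Lck (ENSMUSG00000000409, chromosome 4, 129548344 to 129573641) encodes the kinase that starts receptor signalling. It had 149 and 115 counts after ablation and 29, 68 and 39 in controls, or 9.394 and 8.675 against 1.948, 3.405 and 2.717 CPM. The controls spread more widely than the Treg-ablated libraries, yet the highest control was far under the lower Treg-ablated library. The log2 fold change was 1.72 (SE 0.194, adjusted p = 0.000427).

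**Figure D2:**
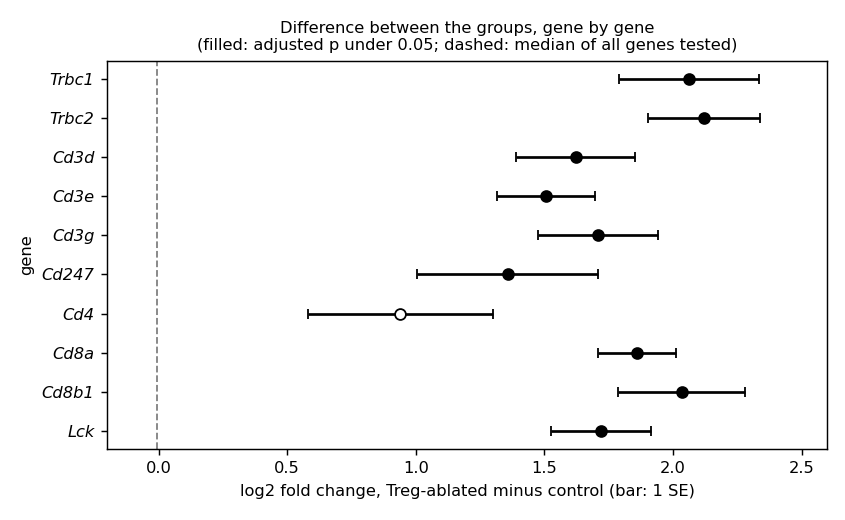
Log2 fold change of each receptor gene, Treg-ablated minus control, with bars of 1 SE from edgeR. Filled points passed an adjusted p under 0.05; Cd4 (0.94, open) did not, and the others lie between 1.36 and 2.12.

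Levels were compared between genes per kilobase of exon. After ablation the order of CPM per kilobase ran from Trbc2 (6.449 ± 0.7456) through Cd3g (5.001 ± 0.09361), Trbc1 (4.596 ± 0.9057), Cd3e (3.476 ± 0.1354), Cd3d (3.188 ± 0.3298) and Lck (3.084 ± 0.1736). Cd8b1 (2.954 ± 0.5702), Cd8a (2.510 ± 0.1172), Cd4 (0.3654 ± 0.01401) and Cd247 (0.2893 ± 0.09128) followed. Cd3e, Cd3d, Lck, Cd8b1 and Cd8a each overlapped the next of them in range over the libraries, and so did Cd3g and Trbc1. In controls Cd3g (1.482 ± 0.4678) and Trbc2 (1.471 ± 0.03397) overlapped at the top. Cd8a (0.6923 ± 0.04122), Cd4 (0.1816 ± 0.07942) and Cd247 (0.1081 ± 0.02188) again came last, each apart from the next. Over the 2116 exon bases that Cd247 shares with no other gene, its level would be 0.729 CPM per kilobase after ablation and 0.272 in controls. No adjustment was made for the stretches that are identical in Trbc1 and Trbc2.

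Ratios between genes in the same library do not depend on scaling, and 6 pairs were compared. With 2 against 3 libraries the exact two-sided permutation test cannot give a p under 0.2, and p-values were adjusted over the 6 pairs. The ratio of Cd8a to Cd4 counts was 5.833 and 6.579 after ablation and 4.750, 2.136 and 4.750 in controls. The groups did not overlap (difference of mean log2 ratios 0.79, exact permutation p = 0.2, adjusted p = 0.6), and the low control was replicate 2. Without that library the difference was 0.42. Over summed counts the ratio was 6.16 (95% exact binomial interval 4.45 to 8.72) after ablation and 3.24 (2.23 to 4.79) in controls. These intervals cover counting error only.

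The ratio of Cd3e to Ptprc, the CD45 gene of all leukocytes, was 0.1734 and 0.1556 after ablation and 0.06039, 0.07051 and 0.08833 in controls. Both Treg-ablated values lay above every control, with a difference that this design cannot bring past the threshold (log2 difference 1.17, exact permutation p = 0.2, adjusted p = 0.6). Ptprc itself had a log2 fold change of 0.32 (adjusted p = 0.0655). Cd8b1 to Cd8a stood at 0.4286 and 0.5280 against 0.3158, 0.4681 and 0.4737, and the groups overlapped (exact permutation p = 0.6). Trbc1 to Trbc2, Cd247 to Cd3e and Lck to Cd3e overlapped as well, with log2 differences of −0.04, −0.14 and 0.28 (exact permutation p = 1, 0.8 and 0.6). With these p-values no difference in the make-up of the complex was shown, nor was equality.

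**Figure D3:**
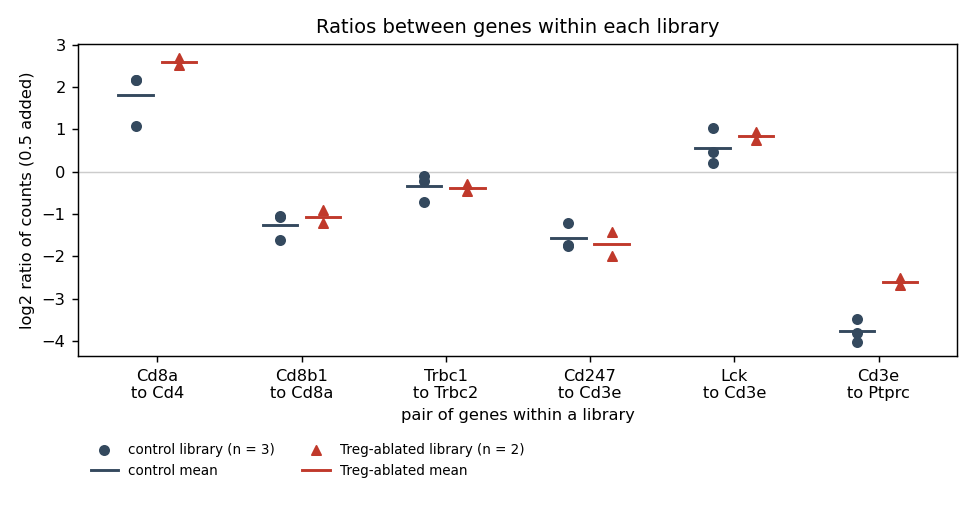
Log2 ratio of counts (0.5 added to each) for 6 pairs of genes within each library, with circles for controls, triangles for Treg-ablated libraries and bars for means. Cd8a to Cd4 and Cd3e to Ptprc do not overlap between groups; the other 4 pairs do.

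The remaining constant genes separate αβ from γδ receptors. Trac, the α-chain constant gene, had 74 and 78 counts after ablation and 27, 40 and 39 in controls, and rose 2.42-fold (log2 fold change 1.28, SE 0.214, adjusted p = 0.00267). The test against a fold of 1.5 did not call Trac (adjusted p = 0.101), while it called Trbc1 and Trbc2; a difference between α and β genes was not tested. The δ gene Trdc had 18 and 2 counts against 4, 4 and 1, so Treg-ablated replicate 1 alone was high. The γ genes Tcrg-C2 (13 and 8 against 3, 8 and 1 counts) and Tcrg-C4 (8 and 7 against 3, 2 and 1) were, like Trdc, too low for the filter. The summed γ and δ constant genes had 39 and 18 counts after ablation and 11, 15 and 3 in controls, a rate ratio of 3.32 (exact 95% interval 2.09 to 5.39, counting error only). Genes of αβ receptors held 82.67% (exact 95% Clopper-Pearson interval 77.08 to 87.37) and 91.51% (86.91 to 94.89) of constant-gene counts after ablation. In controls they held 82.26% (70.47 to 90.8), 83.70% (74.54 to 90.58) and 95.77% (88.14 to 99.12). The groups overlapped, and αβ genes made up most of these counts in every library.

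Variable segments were thinly covered. The 35 Trbv segments had 56 and 69 counts in sum after ablation and 21, 16 and 23 in controls, a rate ratio of 3.52 (exact 95% interval 2.57 to 4.87, counting error only). Counts fell on 17 and 17 of the segments after ablation and on 10, 11 and 10 in controls, at different depths of receptor RNA. The 128 Trav segments had 20 and 22 counts against 5, 19 and 7. Trbv20, with 12 and 9 counts against 2, 1 and 2, was the segment that passed the low-count filter. It passed through the Treg-ablated libraries alone and so had to differ (log2 fold change 2.73, SE 0.556). Of genes of immature thymocytes, Rag1, Rag2, Dntt and Ptcra had 0 and 0 counts in sum after ablation and 2, 2 and 2 in controls.

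Accessory receptors of T cells were higher in most cases. Of 23 listed accessory receptors 20 were tested, and 16 were higher, 0 lower and 4 did not pass, with a median log2 fold change of 1.37. Among all genes tested 13.5% were higher. The filter was passed through the Treg-ablated libraries alone by 5 of the 20, and 4 of these were among the 16 called higher. Icos, a co-stimulatory receptor, rose 4.11-fold, the inhibitory receptors Ctla4 and Pdcd1 rose 3.54-fold and 3.13-fold, and Il2rb, the shared IL-2 and IL-15 receptor chain, rose 2.02-fold. Tigit did not pass (log2 fold change 0.01, adjusted p = 0.975), nor did Lag3 (0.33, adjusted p = 0.313), which lies next to Cd4 among tested genes; these were chosen after their values were seen. In the test against a fold of 1.5, 5 members of the list were higher, against 0.672% of all genes.

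Proximal signalling genes were also listed. Of 30 genes 29 were tested: 11 were higher, 4 lower and 14 did not pass, with a median log2 fold change of 0.32. Among all genes tested 13.5% were higher and 12.3% lower. The adaptor gene Lat rose 4.80-fold and Zap70, the kinase that binds phosphorylated CD3 chains, 2.83-fold. Themis, a thymocyte-expressed regulator of receptor signalling, was 5.76-fold higher, but like 2 others of the list it passed the low-count filter through the Treg-ablated libraries alone. Those that fell were Vav1, Plcg1, Csk and Dgkz, by 0.53, 0.34, 0.30 and 0.38 on the log2 scale, genes that are also expressed outside T cells; they were named after their values were seen. Without control replicate 2 the numbers were 7 higher and 2 lower. Of 16 T cell transcription factor genes 12 were tested, with 6 higher and 1 lower (3 higher without control replicate 2). The shares of all genes tested were again 13.5% higher and 12.3% lower. Of the 12, 4 passed the filter through the Treg-ablated libraries alone. Of these 4, 3 were called higher, among them Eomes at 3.09-fold. Satb1 and Tcf7 rose 3.13-fold and 2.16-fold. Zbtb7b, which directs CD4 lineage choice in the thymus and is also made in other tissues, fell 1.30-fold. In which cells the genes of these lists changed, up or down, was not tested.

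**Figure D4:**
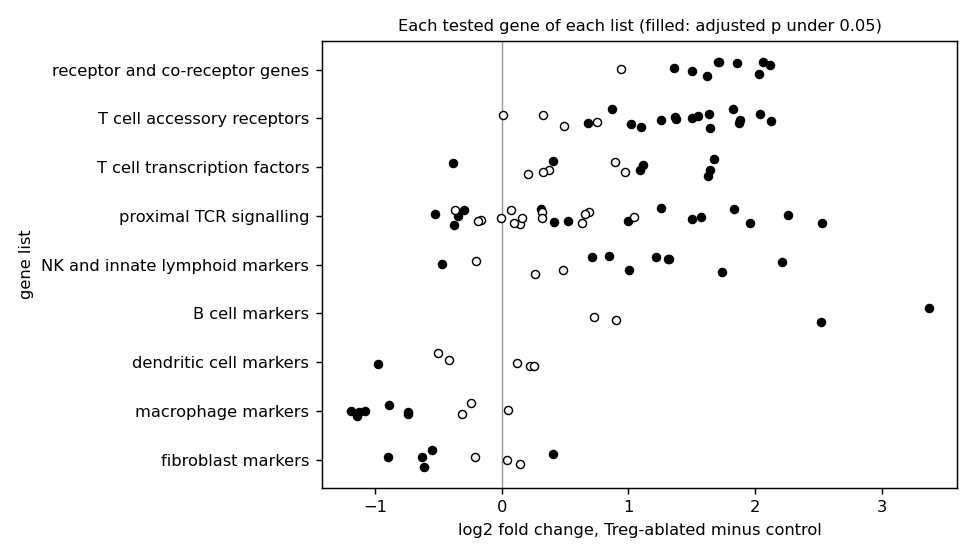
Log2 fold change of every tested gene of each list, Treg-ablated minus control, filled where the adjusted p was under 0.05; vertical offsets within a row carry no value. Genes with 3 or fewer counts over the controls are left out. Receptor genes lie between 0.94 and 2.12, and macrophage markers between −1.19 and 0.05.

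Markers of other cells that can carry some of these transcripts moved too. Of 13 NK and innate lymphoid markers 12 were tested, and 8 were higher and 1 lower. Among all genes tested 13.5% were higher and 12.3% lower. The summed CPM of the NK and innate lymphoid markers was 88.33 and 81.62 after ablation and 62.68 to 64.75 in controls. Gzma and Prf1, cytotoxic granule genes shared by NK and T cells, rose 3.34-fold and 2.32-fold. The NK receptor genes Klrc1, Klra4, Klrd1, Klrk1 and Klre1, some of them also found on T cells, rose 4.63-fold, 1.64-fold, 2.01-fold, 1.80-fold and 2.49-fold, and Klra7, which passed the filter through the Treg-ablated libraries alone, was 2.48-fold higher. Tyrobp was lower, and Ncr1 and Klrb1c did not pass (log2 fold changes 0.27 and 0.48, adjusted p = 0.555 and 0.325). Of 8 B cell markers 6 were tested and 4 were higher, all 4 having passed the filter through the Treg-ablated libraries alone, with a summed CPM of 9.898 and 14.86 against 3.695 to 5.086. Of 9 dendritic cell markers 6 were tested, 0 were higher and 1, Cd209a, was lower; their summed CPM was 37.45 and 36.36 against 33.86 to 37.76. Macrophage markers were lower in 7 of 10, against 12.3% of all genes tested, among them Csf1r and C1qa. Adgre1, the F4/80 gene used in the sort, stood at 5.829 ± 0.1368 CPM after ablation and 9.717 ± 0.1619 CPM in controls. Itgam, the CD11b gene used in the sort, stood at 14.15 ± 2.727 CPM after ablation and 17.73 ± 1.114 CPM in controls. It did not pass (log2 fold change −0.32, edgeR adjusted p = 0.0922). No defining marker of these lists was at 0 in every library. The part of these other cells in the receptor gene values was not tested.

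Genes beside the receptor loci were called about as often as genes in general. The nearest tested gene on each side of the 10 loci gave 12 genes with log2 fold changes from −0.52 to 0.33: 1 was higher (Krcc1, near Cd8b1), 1 lower (Ephb6, near Trbc2) and 10 did not pass, where 13.5% and 12.3% of all genes were higher and lower. The genes most like the receptor set over the 5 libraries, by Pearson's r of log2 CPM with the set's mean, were Tcf7, Gm16439, Ighg2c, Pex3 and Cyth3 (r from 0.9986 to 0.9995, out of 12281 genes). The 5 points form 2 groups, and 76 genes exceeded an r of 0.99, so this is a description of the difference between groups.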

How the data were processed

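RNA from 5 sorted-cell libraries was sequenced as paired reads of 125 bases with a stranded mRNA kit, per the labels. Deposited values are raw counts that the authors obtained from featureCounts 1.6.2, per the file headers: exon-overlapping fragments of each gene in a filtered GRCm38 annotation (Ensembl 83), with no strand or multi-mapping option recorded. Further tools in the submitters' processing notes are Trimmomatic 0.33, DESeq2 1.16.1, FastQC 0.11.5 and, for Subread, version 1.6.2. Groups and replicate numbers come from the titles. Symbols were joined by Ensembl identifier (46488 of 46983 genes).

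Genes were kept by filterByExpr (14580), scaled by TMM and tested with edgeR 4.0.16 in R 4.3.3 (quasi-likelihood, two-sided, no block, Benjamini-Hochberg over all genes, threshold 0.05). Each SE is the size of a log2 fold change over the root of its F value. The test was checked on simulated counts. Ratios used scipy's exact permutation test. Alternatives were other scalings, filters and tools (DESeq2 1.42.0, limma 3.58.1), a fold test, thinning, a GC offset, a replicate block and leaving out each library. Members and lists were chosen with earlier results of these data known. Named genes are all members, up to 4 per list with the smallest p, and fixed checks. Some genes of the lists are not reported here by name.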

Additional observations from a re-analysis of the deposited data

How the results depend on the processing

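Of the 10 receptor genes, between 7 and 10 were called higher and 0 lower over 15 alternatives; the 7 came from requiring 10 counts in every library, which left 7 of them to test. All 10 kept their direction wherever they were fitted. The calls of Cd247 and Cd4 changed as given above, and DESeq2 gave Cd247 no adjusted p. Over all genes, 1971 were higher and 1787 lower. DESeq2 called 1215 higher, and the test against a fold of 1.5 called 98 higher and 23 lower. Leaving out each library gave 812 to 1687 higher and 554 to 1538 lower, with the lowest values without control replicate 2. The groups share replicate numbers 1 and 2 in the titles. Deviations from the group means had correlations of −0.226 and −0.021 between same-numbered libraries. The deposited names number the Treg-ablated libraries 2 and 3 instead. Under that numbering the correlations were 0.021 and −0.199, and no block was fitted. With 2 Treg-ablated libraries, the deviations of 1 mirror those of the other. The correlations are therefore not independent and cannot decide whether libraries were paired. With the replicate block by title numbers 1296 genes were higher and 1116 lower, on 1 residual degree of freedom, and it changed no call among the receptor genes. Among the ratios, the log2 difference changed sign for Trbc1 to Trbc2 (−0.218 to 0.087 over the leave-one-out values) and for Cd247 to Cd3e (−0.418 to 0.147); both lie near 0. For the other ratios these ranges were 0.424 to 0.974 for Cd8a to Cd4, 0.002 to 0.336 for Cd8b1 to Cd8a, 0.099 to 0.510 for Lck to Cd3e and 1.044 to 1.317 for Cd3e to Ptprc. Leaving out a Treg-ablated library leaves 1, which is assumed to vary like the controls. Counts of 7 to 149 per gene and library limit the precision of every receptor gene.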
